A study of Homo sapiens with 12 samples.

Results

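The acyl-CoA dehydrogenases are mitochondrial flavin enzymes that take a pair of hydrogens from an acyl group bound to coenzyme A. The family was set as 10 genes: GCDH, IVD, ACADSB and ACAD8, which serve amino acid breakdown, and ACADS, ACADM, ACADVL, ACAD9, ACAD10 and ACAD11, placed with fatty acid breakdown. A gene was measured where the platform annotation gave a probe set that gene and no other, and its leading probe set was chosen by the highest mean log2 level across the 12 arrays, a value that uses no difference between groups. By this rule 9 of the 10 genes were measured, through 18 probe sets of which 12 passed the filter on low values, and ACAD11 had no probe set naming it alone. All 9 leading probe sets passed the filter. In the whole series 19775 genes were named alone and 10963 of them had a leading probe set that passed, among 22829 tested probe sets. The falls of GCDH at 24 h and of ACADS and ACADM at 48 h were already known when the family was proposed, so they are not independent evidence about it.

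The samples were cultures of HK-2, a human kidney line immortalized from proximal tubule epithelium. They formed 4 groups with 3 biological replicates each: Nnm at a high dose for 24 h, vehicle control for 24 h, Nnm at a high dose for 48 h and vehicle control for 48 h. Every group grew in DMEM and Ham's F12 with glucose, EGF, hydrocortisone, insulin, transferrin, selenite, Glutamax and antibiotics, and treatment began when the wells were nearly confluent. Nnm is named as the labels give it, and its dose and vehicle are not given further in the sources used here. The comparisons ask which transcripts differed between Nnm and control cells at each time, and each array gave 1 log2 level per probe set. In RNA from a whole well, fewer cells carrying a transcript and less transcript per cell cannot be told apart.

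In each round of fatty acid oxidation an acyl-CoA dehydrogenase carries out the opening step, and the family members divide the work by the length of the chain. Other members act on the branched or dicarboxylic acyl groups that come from leucine, isoleucine, valine, lysine and tryptophan. Their electrons pass from FAD to the electron transfer flavoprotein and from there to the respiratory chain, and the proximal tubule is known as a part of the kidney that relies heavily on fatty acid oxidation.

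An array had 22023 to 22228 probe sets above log2 4. On the first principal component, with 57.4% of the variance, Nnm replicates 1 and 3 scored 68.6 to 87.8 at the 2 times and the 6 control arrays scored -49.6 to -44.2. Nnm replicate 2 stood apart from its group, at -16.1 at 24 h and -19.8 at 48 h, so results are also given without it. Of 9 measured proximal tubule markers PAX8 was above log2 4 on all arrays, while LRP2, CUBN, AQP1, SLC34A1, SLC5A2, SLC22A6, GGT1 and ANPEP were above it on none, so most listed markers of that cell type were not seen. All 5 general epithelial markers were above log2 4 on all arrays, as were 3 of 5 fibroblast markers, 1 of 3 podocyte markers, 0 of 4 distal nephron markers and 0 of 4 endothelial markers. The fibroblast markers were COL1A1 (7.18 to 9.01), DCN (11.29 to 12.39) and LUM (9.77 to 10.58).

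At 24 h all 9 measured genes had a lower mean in Nnm cells than in control cells, and at 48 h this held for 8 of 9, the exception being ACAD10, whose 48 h change of 0.01 became -0.05 with quantile normalization or equal array medians. A gene was called where limma's Benjamini-Hochberg adjusted p, taken over all tested probe sets, was under 0.05. At 24 h GCDH, ACAD9 and IVD fell, 3 of 9 genes called lower against 7.42% of all tested probe sets, and 0 were called higher against 7.32%. At 48 h ACADS and ACADM fell, 2 of 9 called lower against 4.44% of all tested probe sets, and 0 were called higher against 5.74%. Both 48 h falls, and that of GCDH at 24 h, were known when the family was proposed. Counts that hold them are therefore not independent evidence about the family. At an unadjusted p under 0.05 limma gave 5 of the 9 genes at 24 h and 6 at 48 h, all of them lower with Nnm. Over all tested probe sets, 35.8% at 24 h and 30.6% at 48 h had such a p, in either direction. The 3 Nnm arrays lay below the 3 control arrays for all 9 genes at 24 h, against 18.9% of all tested probe sets, and for 5 of 9 at 48 h, against 16.1%. The median change over the 9 genes was -0.42 at 24 h and -0.67 at 48 h on the log2 scale, beside medians of -0.01 and 0.01 over all tested probe sets.

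The calls rested on few arrays, and the counts below moved with those over all tested probe sets. With both Nnm arrays numbered 2 left out, 7 genes were called lower at 24 h (GCDH, ACADM, ACADVL, IVD, ACAD8, ACAD9 and ACAD10) and 6 at 48 h (GCDH, ACADS, ACADM, IVD, ACAD8 and ACAD9), where 23.6% and 19.8% of all tested probe sets were called lower. Without Nnm replicate 1 or Nnm replicate 3 of 24 h, 0 genes were called at 24 h, against 0.171% and 0.394% of all tested probe sets called lower. Without Nnm replicate 1 or 3 of 48 h, 0 were called at 48 h, against 0.385% and 0.311%. Without control replicate 1 or 3 of 24 h the count at 24 h was also 0 (0.876% and 0.158% of all tested probe sets), and without control replicate 2 it was 1, GCDH (4.92%). Without any 1 of the 48 h controls the count at 48 h was 1, ACADS (0.517% to 1.58% of all tested probe sets), and the count at 24 h was 2, GCDH and ACAD9 (5.1% to 5.21%). Without Nnm replicate 2 of 24 h the counts were 4 at 24 h and 4 at 48 h (19% and 8.93% of all tested probe sets), and without Nnm replicate 2 of 48 h the count at 48 h was 5 (12.3%). When the model held replicate number as a block across all arrays, 4 genes were called at 24 h, with ACADM added, and 4 at 48 h, with IVD and ACAD8 added, against 15.1% and 10.2% of all tested probe sets called lower.

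**Figure D1:**
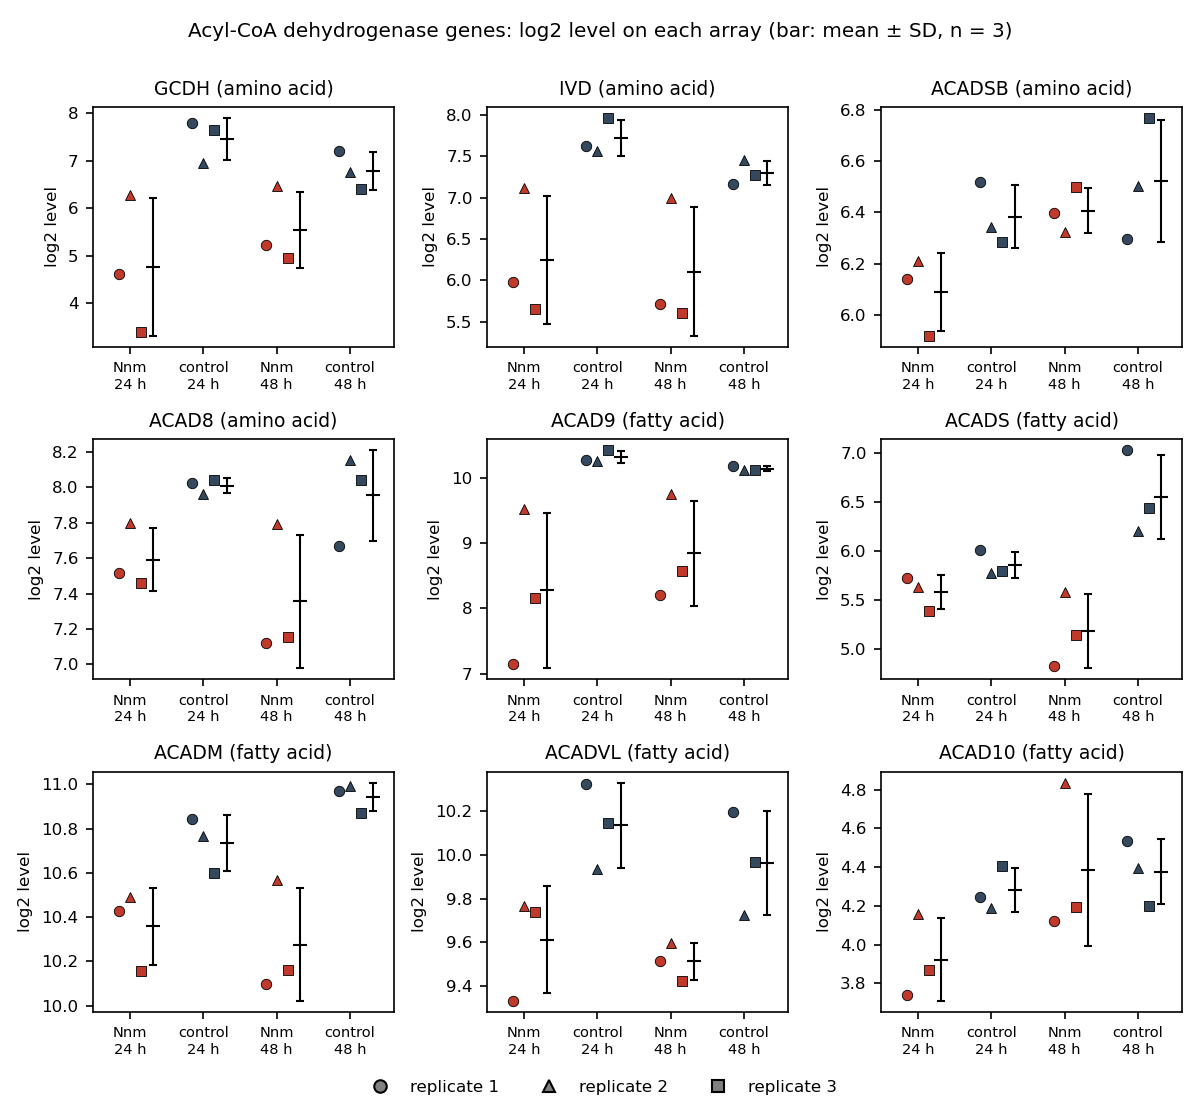
Log2 level of each gene's leading probe set on the 12 arrays, by group, with the symbol giving the replicate and the bar the mean ± SD (n = 3). For GCDH, IVD and ACAD9 the red triangles of Nnm replicate 2 stand near the blue control points while Nnm replicates 1 and 3 lie well under them. Each panel has its own vertical axis, which does not start at 0.

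The stretches just before the annotated starts of the 5 genes called lower are printed because they are the regulatory sequence nearest to the transcripts that fell. They come from RefSeq on GRCh38.p14, which listed such a stretch for the 9 measured genes, and all 5 genes lie on the plus strand. Each run holds the 250 bases before the start, 5′ to 3′. Capitals mark the CCAAT box (CCAAT, or ATTGG on the other strand) and the GC box (GGGCGG, or CCGCCC on the other strand), elements common in human promoters. Neither overlaps the other, though copies of the GC box overlap in ACADM. The windows are chr19:12890879-12891128 for GCDH (the first of 2 listed starts), chr15:40405545-40405794 for IVD, chr3:128879370-128879619 for ACAD9, chr12:120725576-120725825 for ACADS and chr1:75724459-75724708 for ACADM.
GCDH: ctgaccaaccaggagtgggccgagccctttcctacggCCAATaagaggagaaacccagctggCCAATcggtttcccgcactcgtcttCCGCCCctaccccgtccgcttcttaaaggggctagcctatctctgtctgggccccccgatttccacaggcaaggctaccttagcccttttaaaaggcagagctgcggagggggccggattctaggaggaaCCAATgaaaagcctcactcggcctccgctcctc
IVD: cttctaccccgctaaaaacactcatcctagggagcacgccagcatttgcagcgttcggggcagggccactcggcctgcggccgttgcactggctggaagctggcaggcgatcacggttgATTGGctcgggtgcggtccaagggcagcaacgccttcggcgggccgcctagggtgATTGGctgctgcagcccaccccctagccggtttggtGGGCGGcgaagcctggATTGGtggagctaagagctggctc
ACAD9: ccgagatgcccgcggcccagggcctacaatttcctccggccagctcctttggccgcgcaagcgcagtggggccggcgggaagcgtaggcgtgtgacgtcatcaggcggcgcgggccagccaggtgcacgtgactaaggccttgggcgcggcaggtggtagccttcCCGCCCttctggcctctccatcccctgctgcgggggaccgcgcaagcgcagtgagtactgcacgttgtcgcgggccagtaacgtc
ACADS: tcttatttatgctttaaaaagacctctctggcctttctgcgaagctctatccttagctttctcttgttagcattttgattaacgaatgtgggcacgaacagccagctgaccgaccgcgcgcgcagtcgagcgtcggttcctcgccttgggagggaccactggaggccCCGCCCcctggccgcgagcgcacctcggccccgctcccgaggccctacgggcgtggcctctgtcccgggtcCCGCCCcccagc
ACADM: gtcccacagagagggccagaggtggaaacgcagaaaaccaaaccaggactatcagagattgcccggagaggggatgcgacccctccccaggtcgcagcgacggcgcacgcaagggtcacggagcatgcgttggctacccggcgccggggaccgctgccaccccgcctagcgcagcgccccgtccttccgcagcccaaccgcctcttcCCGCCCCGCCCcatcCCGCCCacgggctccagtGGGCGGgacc

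GCDH held 3 CCAAT boxes, 213, 188 and 33 bases before its start, and IVD held 3 on the other strand, 131, 76 and 24 bases before its start. ACAD10, whose window is not printed, held 1, so 3 of the 9 genes had a CCAAT box, while 33% of 27305 human promoter windows of the same length had one. The windows of ACAD9, ACADS and ACADM held no CCAAT box. A GC box lay in 8 of the 9 windows, all but that of ACADVL (the first of 2 listed starts), against 42.3% of all windows. The ACADVL window was 49.6% G and C, and the other 8 were 59.6% to 74.4%. The 8 were not set against windows of like G and C content. The half-site of nuclear receptors AGGTCA (or TGACCT) and the core of the NRF1 motif GCGCATGCG (or CGCATGCGC) lay in ACAD10's window alone, against 12.1% and 1.78% of all windows. These are letter matches within the windows and give no binding.

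GCDH (glutaryl-CoA dehydrogenase), which works on the shared last stretch of lysine and tryptophan breakdown, lies at chr19:12891129-12899999 on GRCh38.p14. At 24 h its leading probe set 203500_at read 4.62, 6.27 and 3.39 in Nnm replicates 1, 2 and 3, against 7.78, 6.95 and 7.64 in control replicates 1, 2 and 3. The highest Nnm array, replicate 2, was still under the lowest control array, and replicate 3 was under the filter level of 4. The means were 4.76 ± 1.44 in Nnm cells and 7.46 ± 0.45 in control cells (SD, n = 3 each), and GCDH fell by 2.70 on the log2 scale (SE 0.64, 95% interval -4.11 to -1.29), which is 6.48-fold lower (limma adjusted p = 0.0262). At 48 h it read 5.23, 6.46 and 4.96 in Nnm cells, against 7.20, 6.76 and 6.40 in control cells. Here Nnm replicate 2 lay above control replicate 3, so the groups overlapped. The 48 h change was -1.24 (SE 0.64, 95% interval -2.65 to 0.17) and did not pass (limma adjusted p = 0.215). Over 22 alternatives the 24 h change lay between -3.45 and -2.01 and was called in 15, with limma adjusted p between 0.000166 and 0.118.

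The other GCDH probe set, 208369_s_at, read 2.92, 5.62 and 2.73 in Nnm cells at 24 h, against 7.19, 6.41 and 6.94 in control cells. Nnm replicates 1 and 3 were under the filter level, and the change was -3.09 (limma adjusted p = 0.0178). With those 2 arrays raised to log2 4 the Nnm mean was 4.54, against 6.84 in control cells, a 4.94-fold difference between the means. That value allows for the low readings only and is not a lower bound on the fall. The 95% interval of the 24 h change of 208369_s_at was -4.48 to -1.70. At 48 h its change was -1.30 (limma adjusted p = 0.189), with Nnm and control arrays apart. Both probe sets of GCDH thus placed Nnm replicate 2 between the other Nnm arrays and the controls at 24 h.

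IVD, the dehydrogenase of isovaleryl-CoA in leucine breakdown, lies at chr15:40405795-40435947. At 24 h its leading probe set 216958_s_at read 5.98, 7.12 and 5.65 in Nnm cells, against 7.62, 7.57 and 7.97 in control cells. At 48 h it read 5.71, 7.00 and 5.60 in Nnm cells, against 7.17, 7.46 and 7.28 in control cells. At both times the groups were apart and Nnm replicate 2 was the nearest to the controls. IVD fell by 1.47 on the log2 scale at 24 h (SE 0.41, limma adjusted p = 0.0416), 2.77-fold lower, with means of 6.25 ± 0.77 in Nnm cells and 7.72 ± 0.22 in control cells (SD, n = 3 each). At 48 h the change was -1.19 (SE 0.41), with limma adjusted p = 0.0862. The replicate block gave 0.0389 for the same 48 h change, and over 22 alternatives its limma adjusted p lay between 0.00012 and 0.271. The 24 h call was made in 11 of 22 alternatives, the change lying between -1.91 and -1.17.

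A further IVD probe set, 225311_at, was called lower at both times, with changes of -1.03 at 24 h (limma adjusted p = 0.0458) and -1.41 at 48 h (limma adjusted p = 0.0218). So at 48 h the tested probe sets of IVD were alike in direction and lay on different sides of the threshold. The remaining IVD probe sets, 203681_at and 203682_s_at, did not pass the filter.

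ACAD8 (isobutyryl-CoA dehydrogenase of valine breakdown) and ACADSB, which acts on the acyl group from isoleucine, were not called at either time. ACAD8 read 7.52, 7.80 and 7.46 in Nnm cells at 24 h, against 8.02, 7.96 and 8.04 in control cells. At 48 h ACAD8 read 7.12, 7.79 and 7.16 in Nnm cells, against 7.67, 8.15 and 8.04 in control cells. Its groups were apart at 24 h, and at 48 h Nnm replicate 2 was above control replicate 1. Its changes were -0.42 (SE 0.20, limma adjusted p = 0.160) and -0.60 (SE 0.20, limma adjusted p = 0.0779), and the block gave 0.0329 at 48 h within a range of 0.00221 to 0.257 over 22 alternatives. ACADSB read 6.14, 6.21 and 5.92 in Nnm cells at 24 h, against 6.52, 6.34 and 6.29 in control cells. At 48 h ACADSB read 6.40, 6.33 and 6.50 in Nnm cells, against 6.30, 6.50 and 6.77 in control cells. The 24 h arrays were apart and the 48 h arrays overlapped, with changes of -0.29 (limma adjusted p = 0.179) and -0.12 (limma adjusted p = 0.628). Another ACADSB probe set, 226030_at, gave 0.05 at 24 h and -0.52 at 48 h (limma adjusted p = 0.930 and 0.266), with overlap at both times. ACAD8 lies at chr11:134253568-134265855 and ACADSB at chr10:123009006-123058290.

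Among the genes placed with fatty acid breakdown, ACAD9 had the largest 24 h change. Its protein resembles ACADVL and is best known as an assembly factor of respiratory complex I, and the gene lies at chr3:128879620-128913114. At 24 h probe set 224160_s_at read 7.15, 9.52 and 8.16 in Nnm cells, against 10.28, 10.25 and 10.42 in control cells. At 48 h it read 8.21, 9.75 and 8.57 in Nnm cells, against 10.18, 10.11 and 10.11 in control cells. The controls were close together at both times, the Nnm arrays were spread, and the groups did not overlap. ACAD9 fell by 2.04 on the log2 scale at 24 h (SE 0.53, 95% interval -3.21 to -0.88), 4.12-fold lower (limma adjusted p = 0.0322), with means of 8.28 ± 1.19 in Nnm cells and 10.32 ± 0.09 in control cells (SD, n = 3 each). At 48 h the change was -1.29 (SE 0.53, limma adjusted p = 0.129). The 24 h change lay between -2.66 and -1.48 over 22 alternatives and was called in 14. A further ACAD9 probe set, 239976_at, did not pass the filter.

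ACADS, the short-chain dehydrogenase, lies at chr12:120725826-120740008 and fell at 48 h. It read 4.83, 5.58 and 5.14 in Nnm cells at 48 h, against 7.03, 6.20 and 6.44 in control cells. At 24 h it read 5.72, 5.64 and 5.39 in Nnm cells, against 6.01, 5.77 and 5.79 in control cells. The groups were apart at both times, narrowly at 24 h. At 48 h ACADS averaged 5.18 ± 0.38 in Nnm cells and 6.56 ± 0.43 in control cells (SD, n = 3 each). It fell by 1.37 on the log2 scale (SE 0.24, 95% interval -1.90 to -0.85), 2.59-fold lower (limma adjusted p = 0.0131), while the 24 h change was -0.27 (SE 0.24, limma adjusted p = 0.438). In 22 alternatives the 48 h change lay between -1.57 and -1.14 and was called in 18, with limma adjusted p up to 0.0965.

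ACADM, the medium-chain dehydrogenase, lies at chr1:75724709-75763679. It read 10.43, 10.49 and 10.16 in Nnm cells at 24 h, against 10.84, 10.76 and 10.60 in control cells. At 48 h it read 10.10, 10.57 and 10.16 in Nnm cells, against 10.97, 10.99 and 10.87 in control cells. Every Nnm array was below every control array of its time. ACADM fell by 0.67 on the log2 scale at 48 h (SE 0.15, limma adjusted p = 0.0264), 1.59-fold lower, with means of 10.28 ± 0.25 in Nnm cells and 10.94 ± 0.06 in control cells (SD, n = 3 each). Its 24 h change was -0.38 (SE 0.15, limma adjusted p = 0.108), for which the replicate block gave 0.0499 and 22 alternatives gave 0.0169 to 0.322. The 48 h change was called in 14 of 22 alternatives and lay between -0.81 and -0.58.

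ACADVL, the very long-chain dehydrogenase of the inner mitochondrial membrane, and ACAD10, a less studied member, were not called. ACADVL read 9.33, 9.77 and 9.74 in Nnm cells at 24 h, against 10.32, 9.93 and 10.14 in control cells. At 48 h ACADVL read 9.52, 9.60 and 9.43 in Nnm cells, against 10.20, 9.72 and 9.97 in control cells. Its arrays were apart at both times, with changes of -0.52 (SE 0.17, limma adjusted p = 0.0629) and -0.45 (SE 0.17, limma adjusted p = 0.109). ACAD10 read 3.74, 4.16 and 3.87 in Nnm cells at 24 h, against 4.25, 4.19 and 4.41 in control cells. At 48 h ACAD10 read 4.12, 4.84 and 4.20 in Nnm cells, against 4.53, 4.40 and 4.20 in control cells. These values lay near the filter level, which ACAD10 passed on 10 of 12 arrays, and its other 3 probe sets did not pass. Its changes were -0.36 at 24 h and 0.01 at 48 h (limma adjusted p = 0.220 and 0.984), with overlap at 48 h. ACADVL lies at chr17:7217125-7225266 and ACAD10 at chr12:111686053-111757099.

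**Figure D2:**
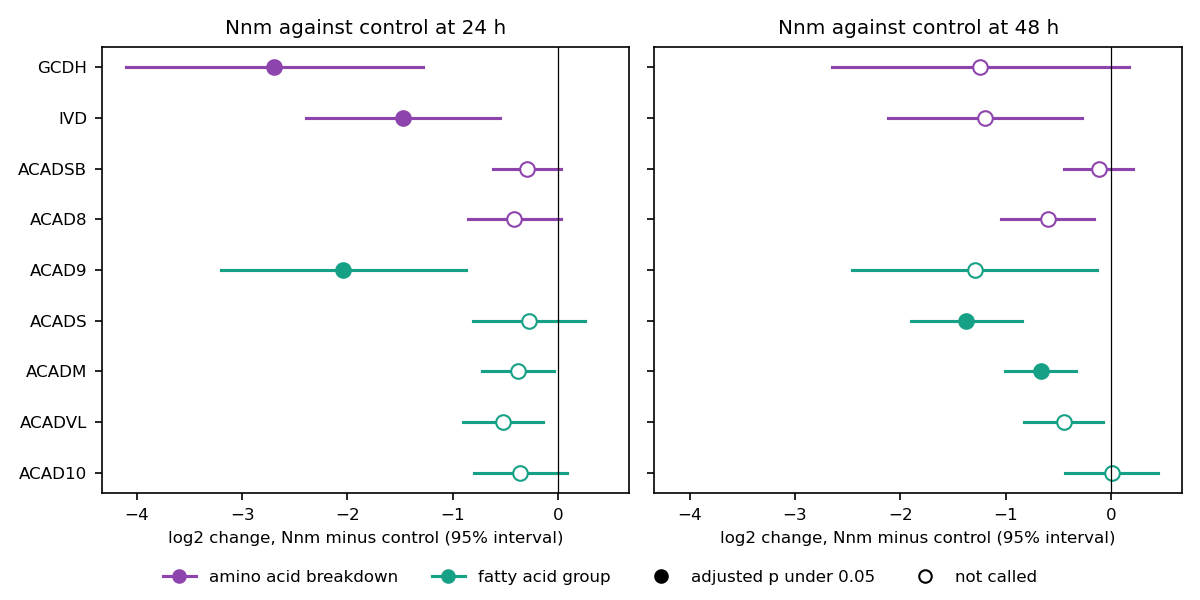
Log2 change of each gene, Nnm minus control, at 24 h and 48 h, with its 95% interval from limma and a filled point where the adjusted p over all tested probe sets was under 0.05. Filled points are GCDH, IVD and ACAD9 at 24 h and ACADS and ACADM at 48 h.

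Set by role, the 4 amino acid genes had a median change of -0.94 at 24 h, with GCDH and IVD called lower, and the 5 fatty acid genes one of -0.38, with ACAD9 called lower. At 48 h the medians were -0.90 for the amino acid genes, with 0 called by limma, and -0.67 for the fatty acid genes, with ACADS and ACADM called lower. Over all tested probe sets 7.42% were called lower at 24 h and 4.44% at 48 h. With 4 and 5 genes, these counts of calls say little about a contrast between the roles. At 24 h 2 amino acid and 3 fatty acid genes had an unadjusted limma p under 0.05, against 35.8% of all tested probe sets in either direction. At 48 h 2 amino acid and 4 fatty acid genes had such a p, against 30.6%. Within the amino acid genes the changes at 24 h ran from -2.70 for GCDH to -0.29 for ACADSB. Within the fatty acid genes they ran from -2.04 for ACAD9 to -0.27 for ACADS. The spread inside each role was wider than the gap between the medians, and no test was made between them, since the genes were chosen with values known.

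Each Nnm array was also set against the mean of the 3 controls of its time. At 24 h the median difference over the 9 genes was -0.54 for Nnm replicate 1, -0.25 for replicate 2 and -0.55 for replicate 3, with all 9 genes below the control mean in each. At 48 h the medians were -0.84, -0.33 and -0.80, with 9, 8 and 9 genes below. The exception in replicate 2 at 48 h was ACAD10, at 0.46 above the control mean. Nnm replicate 2 therefore lay on the same side as the other Nnm arrays for all but that gene, at a smaller size in the median. For the amino acid genes the medians at 24 h were -1.12, -0.41 and -1.31 in replicates 1, 2 and 3, and for the fatty acid genes -0.54, -0.25 and -0.47. By size, replicate 2 was not the nearest to the control mean for ACADS at 24 h, where replicate 1 was. At 48 h replicate 2 was the farthest for ACADSB (-0.12, -0.20 and -0.03 in replicates 1, 2 and 3). It was also the farthest at 48 h for ACAD10 (-0.26, 0.46 and -0.18).

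**Figure D3:**
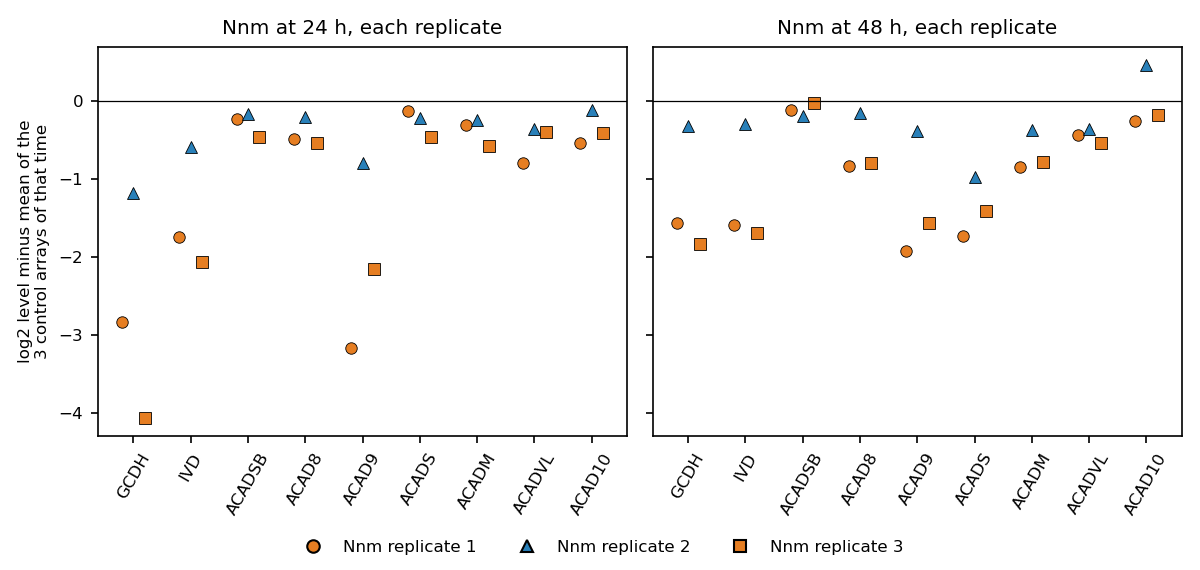
Difference of each Nnm array from the mean of the 3 control arrays of its time, in log2 units, for the 9 genes at 24 h and 48 h. Nnm replicate 2, drawn as blue triangles, is nearest to 0 for GCDH, IVD, ACAD8, ACAD9, ACADM and ACADVL at both times and is above 0 for ACAD10 at 48 h.

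Time was compared as well. The difference between the Nnm effects at 48 h and 24 h was called for 0 of 9 genes, against 0% of all tested probe sets, with 1 gene (ACADS) at an unadjusted p under 0.05, and 1418 such probe sets in the whole table. For ACADS this difference was -1.10 (SE 0.34, unadjusted p = 0.00812, limma adjusted p = 0.780), and it was called only with both Nnm arrays numbered 2 left out. Between control cells at 48 h and at 24 h 0 of 9 genes were called, against 0% of all tested probe sets, with ACADS at an unadjusted p under 0.05 and 1836 such probe sets (8.04%) among those tested. ACADS was higher by 0.70 in control cells at 48 h than at 24 h (limma adjusted p = 0.522), and it differed by -0.40 in Nnm cells between the same times (limma adjusted p = 0.477). Between Nnm cells at 48 h and at 24 h 0 of 9 genes were called, against 0% of all tested probe sets, with ACAD10 at an unadjusted p under 0.05 and 3138 such probe sets (13.7%) among those tested. For GCDH the difference of the effects was 1.46 (SE 0.90, 95% interval -0.54 to 3.45, limma adjusted p = 0.795), so its 24 h fall is not shown to differ from its 48 h value.

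The order of the group means, given from highest to lowest, differed by gene. For GCDH it ran from control at 24 h through control at 48 h and Nnm at 48 h to Nnm at 24 h, and each neighbouring pair in that order overlapped. For ACADS and ACADM it ran from control at 48 h through control at 24 h and Nnm at 24 h to Nnm at 48 h, and only the Nnm groups overlapped as neighbours. IVD ran from control at 24 h through control at 48 h and Nnm at 24 h to Nnm at 48 h, with overlap between the Nnm groups alone. ACAD9 had Nnm at 24 h as its lowest group and Nnm at 48 h next, also overlapping. For ACADVL and ACAD8 both controls stood above both Nnm groups, and all neighbours overlapped. ACADSB and ACAD10 had Nnm at 24 h as the lowest group, apart from its neighbour, while their upper 3 groups overlapped as neighbours.

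The genes around the family were read from lists chosen with earlier results of these data known. In the electron transfer and FAD list, 8 of 11 genes were tested. FLAD1, which makes FAD, fell at both times, by 1.06 and 0.77 on the log2 scale (limma adjusted p = 0.0106 and 0.0228). RFK, the kinase that turns riboflavin into FMN, rose by 1.00 at 24 h (limma adjusted p = 0.0350). ETFA, a subunit of the electron transfer flavoprotein that accepts the family's electrons, fell by 0.66 at 48 h (limma adjusted p = 0.0292). The list counted 1 lower and 1 higher at 24 h and 2 lower and 0 higher at 48 h, with medians of -0.22 and -0.41. ETFB, the partner subunit, named here after its values were seen, changed by -0.80 and -1.14 without passing (limma adjusted p = 0.107 and 0.0505). It was called at both times under the replicate block, which gave 2 lower at 24 h and 3 at 48 h, and without both Nnm arrays numbered 2 the list had 4 lower and 2 higher at 24 h and 4 lower and 1 higher at 48 h. Over all tested probe sets 15.1% and 10.2% were called lower under the block at 24 h and 48 h, and 14.2% and 11.9% higher. Without those arrays 23.6% and 19.8% were called lower, and 23.4% and 22.3% higher. These shares are the background of the counts here and in the lists that follow.

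In the list of fatty acid entry and later beta-oxidation steps, 15 of 18 genes were tested, with 0 lower and 1 higher at 24 h and 1 lower and 0 higher at 48 h. The one higher was ACSM3, a medium-chain acyl-CoA synthetase, by 1.28 at 24 h (limma adjusted p = 0.0238). The one lower was HADHA, the alpha subunit of the trifunctional protein, with a change of -0.51 at 48 h (limma adjusted p = 0.0346). The medians were -0.22 and -0.37. Under the block 3 genes were lower at 24 h (ECI1, ACSL1 and ACSL4) and 5 at 48 h, and without both Nnm arrays numbered 2 the counts were 8 lower and 2 higher at 24 h (CPT1A and ACSM3 higher) and 10 lower and 1 higher at 48 h (CPT1A higher). Of the 4 peroxisomal oxidases, which do a like first step in peroxisomes, 1 was tested, ACOX3, with changes of -0.79 at 24 h and 0.02 at 48 h that were not called. Over all of the tested probe sets, 7.42% and 4.44% were called lower at 24 h and 48 h in the main model, and 7.32% and 5.74% higher.

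Of 21 genes of branched-chain amino acid breakdown, 20 were tested, with 2 lower and 0 higher at 24 h and 3 lower and 0 higher at 48 h, and medians of -0.29 and -0.43. BCKDK, the kinase that restrains the branched-chain ketoacid dehydrogenase, fell by 1.87 on the log2 scale at 24 h (limma adjusted p = 0.0248). PCCB, a subunit of propionyl-CoA carboxylase, fell by 0.91 at 24 h and by 1.46 at 48 h (limma adjusted p = 0.0440 and 0.0138). At 48 h MCCC2, a subunit of the carboxylase that follows IVD in leucine breakdown, fell by 0.94 (limma adjusted p = 0.0249). DLD, a subunit shared by several ketoacid dehydrogenases, fell by 1.08 at 48 h (limma adjusted p = 0.0337). The block gave 6 lower and 1 higher at 24 h and 8 lower at 48 h, and without both Nnm arrays numbered 2 the counts were 10 lower and 1 higher (PPM1K) at 24 h and 11 lower and 1 higher (HIBCH) at 48 h.

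The lysine and tryptophan list, the pathways that feed GCDH, had 8 of 15 genes tested, with 2 lower and 0 higher at each time and medians of -0.66 and -0.42. The called genes were OGDH, with changes of -1.10 and -0.80 (limma adjusted p = 0.0171 and 0.0464), and DLST, with changes of -0.97 and -0.98 (limma adjusted p = 0.0202 and 0.0215). Both encode subunits of the 2-oxoglutarate dehydrogenase complex of the citric acid cycle as well. Under the block ACMSD was added, giving 3 lower at 24 h, and KYNU was called higher at 48 h beside 2 lower. Without both Nnm arrays numbered 2 the list had 6 lower at 24 h and 4 lower and 1 higher at 48 h. All 9 complex I assembly partners of ACAD9 were tested, with 1 lower at each time and 0 higher, and medians of -0.39 and -0.21. These were TMEM126B, an assembly factor in the same complex as ACAD9, with a change of -0.48 at 24 h (limma adjusted p = 0.0382), and NDUFAF3, with a change of -1.60 at 48 h (limma adjusted p = 0.0282). Under the block 3 were lower and 1 higher at 24 h and 2 lower at 48 h, and without both Nnm arrays numbered 2 the counts were 4 lower at 24 h and 3 lower and 1 higher at 48 h.

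Of 14 listed regulators of oxidation genes, 10 were tested, with medians of 0.14 and 0.04. PPARGC1A, a coactivator of mitochondrial and fatty acid oxidation genes, fell by 1.59 on the log2 scale at 24 h (limma adjusted p = 0.0378). GABPA, a subunit of a factor that binds promoters of many mitochondrial genes, rose by 1.18 at 24 h and 1.00 at 48 h (limma adjusted p = 0.0137 and 0.0218). The counts were 1 lower and 1 higher at 24 h and 0 lower and 1 higher at 48 h. The block left these counts as they were, and without both Nnm arrays numbered 2 they were 2 and 2 at 24 h and 1 and 1 at 48 h.

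**Figure D4:**
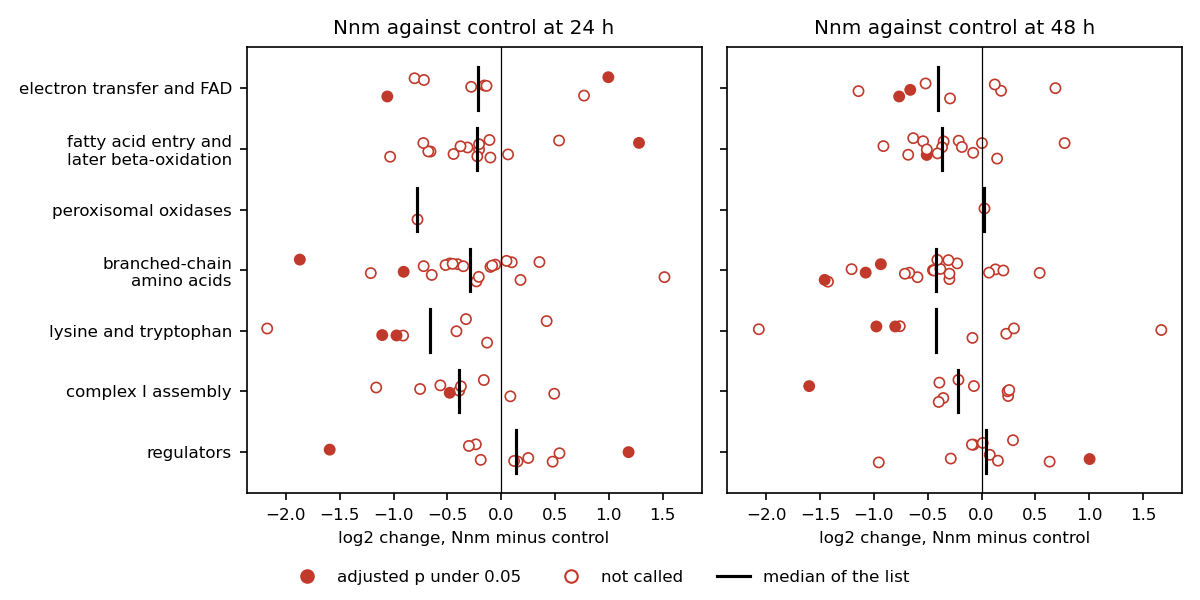
Log2 change, Nnm minus control, of every tested gene in the 7 lists around the family at 24 h and 48 h, with filled points where the limma adjusted p was under 0.05 and a black bar at each list's median. The medians of 5 lists are below 0 at both times, while the peroxisomal list holds 1 gene and the regulators have medians of 0.14 and 0.04. Points are shifted up or down so that they do not hide each other.

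The protein-coding genes next to the family members on the chromosome, those beside the unmeasured ACAD11 included, were examined in the same fit. Of 20 such neighbours 13 were tested, and limma called 0 at either time, the lowest adjusted p being 0.0620 at 24 h and 0.110 at 48 h. Over all tested probe sets 7.42% were called lower and 7.32% higher at 24 h, and 4.44% and 5.74% at 48 h. With 13 genes a count of 0 therefore says little. Across the 12 arrays the 36 pairs of family genes had Pearson correlations between 0.225 and 0.922, with a median of 0.642. On the first principal component Nnm replicates 1 and 3 lay far from the controls and Nnm replicate 2 lay nearer to the controls. These correlations are therefore descriptions of shared array differences. The genes whose levels followed GCDH most closely over the 12 arrays were RBM26 (r = 0.970), PIGC (0.969), ZNF462 (0.968), HILPDA (0.968) and TRNT1 (0.966). For ACADS they were PPP2R5B (r = 0.923), ATP6AP1-DT (0.922), SUCLG1 (0.920), CHID1 (0.907) and THBS3 (0.902). ACADS had the largest 48 h change among the family's leading probe sets in the model over all 12 arrays. Without the Nnm arrays numbered 2, ACAD9 (-1.74), GCDH (-1.69) and IVD (-1.64) had larger 48 h changes than ACADS (-1.57).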

How the data were processed

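RNA of 12 HK-2 cultures was measured on Affymetrix arrays, 1 array a sample. The deposited table held log2 expression values. Per the submitters' processing notes the authors used GCRMA, whose version is not given. GCRMA brings arrays to like distributions, which would hide a shift common to nearly all genes. The number of arrays limits the precision, and the p-values measure the spread between these biological replicates.

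From the table's 54675 probe sets, 62 controls were left out, and 22829 of the remaining 54613 were tested, those above log2 4 on at least 3 arrays. The platform annotation named 1 gene for 41091, several for 1801 and none for 11721. All 12 arrays entered 1 model with 4 groups in limma 3.58.1 (R 4.3.3), leaving 8 residual degrees of freedom, with Benjamini-Hochberg adjustment over all tested probe sets. The calculation was checked on simulated data. Same-numbered arrays of different groups deviated together from their group means (18 correlations, 0.162 to 0.669, median 0.363, against a median of -0.208 over 36 pairs of different numbers). The labels number the biological replicates and state no pairing. Deviations within a group cancel, so positive same-number correlations bring negative different-number ones, and the medians are not separate evidence. Whether the numbers pair the samples was not settled by this check. The calls come from the model without the block, and counts with the block are given beside them.

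The family and the gene lists were chosen with earlier results of these data known. All family genes are named, with up to 4 called genes of each list and the 5 genes most correlated with GCDH and with the family gene of largest change at 48 h. Gene positions, names and promoter windows come from RefSeq on GRCh38.p14. Alternatives changed the filter, scaling, block, probe set summary and arrays included.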

Additional observations from a re-analysis of the deposited data

How the results depend on the processing

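No change of a family gene that was called had the opposite direction under any alternative run. Over the 9 genes and 5 comparisons, 855 values kept their direction and side of the threshold, 38 lost the call, 19 gained it and 19 uncalled values changed sign. ACAD10 at 48 h (0.0080) became -0.046 with quantile normalization, -0.050 with equal array medians and -0.22 with both Nnm arrays numbered 2 left out. With the mean over a gene's probe sets, the difference of the effects became -0.19 for ACADSB (0.18) and -0.052 for IVD (0.28), and ACADSB over time in Nnm cells became -0.082 (0.32). The filter mattered: with no filter 0 genes of the family were called at 24 h and 1 at 48 h. Over 54613 probe sets 848 and 842 were then called in either direction, against 3366 and 2323 of 22829 in the main model. Those called lower were 0.784% and 0.659% with no filter, against 7.42% and 4.44%. With each time fitted alone the calls were 0 and 0 genes, and 112 and 115 probe sets, with 0.197% and 0.193% called lower. The replicate block within each time, which has few residual degrees of freedom, gave 0 genes and 0 probe sets at either time. The block over all arrays gave 4 genes at each time, and 6700 and 5046 probe sets, with 15.1% and 10.2% called lower. It added the calls of ACADM at 24 h and of IVD and ACAD8 at 48 h and changed no other call of a family gene in the 5 comparisons. With both Nnm arrays numbered 2 left out, limma called 7 and 6 genes of the family, and 10730 and 9605 probe sets, with 23.6% and 19.8% called lower.

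Leaving out 1 array at a time gave between 0 and 4 family genes at 24 h and between 0 and 5 at 48 h, and between 81 and 8683 probe sets at 24 h and between 207 and 6117 at 48 h. The lone arrays behind these ranges are named beside the calls above. The sign changes with 1 array left out were in results not called, which ranged as follows: ACAD10 at 48 h from -0.22 to 0.14, ACADSB at 48 h from -0.23 to 0.0068, the difference of the effects from -0.067 to 0.19 for ACADVL and from -0.17 to 0.71 for IVD, ACAD8 over time in control cells from -0.15 to 0.090, and time in Nnm cells from -0.59 to 0.29 for IVD and from -0.23 to 0.0064 for ACADM. For ACADSB the difference of the effects ranged from 0.063 to 0.30 and time in Nnm cells from 0.23 to 0.38.

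For the difference of the effects, limma called 2 probe sets with no filter, 2556 with both Nnm arrays numbered 2 left out (1 of them a family gene) and between 0 and 1028 with 1 array left out. The 2556 were 4.63% of the tested probe sets called lower and 6.57% called higher. For time in control cells, the calls were 1 with no filter, 1 with the stricter filter, 1 with equal array medians, 12 with the block over all arrays, 26 with both Nnm arrays numbered 2 left out and between 0 and 4 with 1 array left out. For time in Nnm cells, they were 16 with no filter, 4985 with both Nnm arrays numbered 2 left out and between 0 and 3683 with 1 array left out. With 1 array left out, calls for the difference of the effects came only without Nnm replicate 2 of 24 h (1028) or of 48 h (102). For time in Nnm cells the calls likewise came only without those arrays (3683 and 1042). The cause of these differences was not tested. Calls with no filter were adjusted over more probe sets, and those with an array left out rest on fewer arrays.

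ACAD10 did not pass the stricter filter and has no value there. GCRMA values carry no detection flag, so levels near the filter, such as those of ACAD10 and of GCDH in Nnm cells at 24 h, have less certain order.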
